A study of Mus musculus with 30 samples.

Results

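The genes of the BLOC-1 complex (biogenesis of lysosome-related organelles complex 1) are Bloc1s1, Bloc1s2, Bloc1s3, Bloc1s4, Bloc1s5, Bloc1s6, Snapin and Dtnbp1. They were chosen by name, as the 8 subunits of the complex among 55401 genes in the count tables, because Bloc1s6 fell strongly after 8 h of SRCAP depletion. That 8 h contrast, and Bloc1s6 at the earlier times that share its controls, are therefore described here without a test.

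BLOC-1 is a cytosolic complex that sorts cargo from early endosomes towards lysosome-related organelles such as melanosomes and platelet dense granules. Subunits named by mouse coat-color mutants include pallidin (Bloc1s6), muted (Bloc1s5), cappuccino (Bloc1s4) and dysbindin (Dtnbp1, mutated in sandy). Bloc1s1, Bloc1s2 and Snapin also belong to BORC, a related complex that moves lysosomes along microtubules. All subunits are broadly expressed, and pigment cells are the setting in which their loss is seen most easily.

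SRCAP is the ATPase that places the histone variant H2A.Z in nucleosomes. SYAT cells are CGR8 mouse ES cells in which both Srcap alleles carry a YPet-AID tag, derived as 1 homozygous clone, and which express OsTir1 from an EF1a promoter. IAA at 500 µM then leads to degradation of SRCAP, and control cells received the Tir1 inhibitor auxinole. Cells were grown in serum and LIF. SYAT cells were treated for 2, 4, 6 or 8 h (10 libraries with their control), and parental CGR8 cells without the degron for 4 h (4 libraries). SYAT cells treated for 1 h were sorted by a mitotic degron reporter and DNA content into early G1 (EG1) or late G1 (LG1; 8 libraries). In a further 8 libraries, SYAT cells with a lentiviral, dox-inducible mCherry fusion of wild-type SRCAP (wtSRCAP) or of SRCAP mutated in its ATPase domain (cdSRCAP), 1 clone each, received 1 µg/mL dox for 24 h and IAA for 4 h or none. Each condition has 2 libraries, described as biological duplicates.

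Nuclear RNA was counted per gene in an exon and an intron column. Exon columns summed to between 12236493 and 60214521 counts. In the SYAT and EG1 libraries the intron columns also hold exonic reads. Genes without an intron show this: of those with 20 or more exon counts, 51.9% in SYAT and 43.8% in EG1 have counts in the intron column, against 0.0506% in LG1 and 0% in CGR8, wtSRCAP and cdSRCAP. All 8 ES cell markers reached 1 TPM in every table. Of 5 markers each of primitive endoderm, trophoblast and feeder fibroblasts, 2 to 4 reached 1 TPM, with Lum at 0 in CGR8, wtSRCAP and cdSRCAP cells. Srcap RNA itself does not check the labels, because the degron acts on the protein; its exon counts in SYAT cells were 815 and 936 in controls and between 917 and 1231 after IAA.

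The genes lie on 7 chromosomes of mm10, Bloc1s6 at chr2:122738503-122749475 on the plus strand and the other 7 on the minus strand, with Bloc1s5 at chr13:38592842-38635109. Slc30a4, a zinc transporter, is the nearest protein-coding gene before Bloc1s6 at a distance of 35840 bases, and Sqor, a mitochondrial sulfide oxidase, follows it 15762 bases away. Bloc1s1 shares 5007 bases with Rdh5 on the same strand, so its counts are uncertain. Snapin overlaps Ilf2 by 354 bases on the opposite strand, and the strand setting of the counting is not given in the sources used here. Bloc1s4 has a single exon. Its intron column was 0 in CGR8, LG1, wtSRCAP and cdSRCAP libraries and equal to its exon column, within 1 count, in SYAT and EG1.

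Start sites of 6 of the 8 genes were matched in RefSeq promoters (GRCm38.p6). The stretches from 100 bases before to 20 after the start are shown for Bloc1s5, Bloc1s4, Bloc1s1 and Dtnbp1, as examples picked after their values were seen. None of the 4 was called in SYAT cells by edgeR at 2, 4 or 6 h, and Bloc1s2 and Bloc1s3, not shown, lay below both controls in 7 of 8 IAA libraries, as Bloc1s4 did. Capitals mark TGACGT (the core of a cAMP response element), CACGTG (E-box) and CCGGAAG or its reverse complement CTTCCGG (ETS), searched on both strands and chosen after the sequences were seen.
Bloc1s5, chr13:38635073-38635192, minus strand: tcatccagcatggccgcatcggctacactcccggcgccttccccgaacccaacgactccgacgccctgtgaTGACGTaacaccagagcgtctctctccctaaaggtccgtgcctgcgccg
Bloc1s4, chr5:36748660-36748779, minus strand: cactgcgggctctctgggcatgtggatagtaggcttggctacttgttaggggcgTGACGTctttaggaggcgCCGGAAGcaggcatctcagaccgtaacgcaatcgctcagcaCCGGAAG
Bloc1s1, chr10:128923505-128923624, minus strand: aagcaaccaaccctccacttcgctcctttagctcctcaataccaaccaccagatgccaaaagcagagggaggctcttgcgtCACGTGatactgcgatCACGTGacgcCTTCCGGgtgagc
Dtnbp1, chr13:45002077-45002196, minus strand: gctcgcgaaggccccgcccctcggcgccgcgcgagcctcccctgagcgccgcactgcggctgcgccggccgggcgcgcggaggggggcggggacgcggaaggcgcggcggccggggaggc
The TGACGT letters begin 29 bases before the start in Bloc1s5 and 46 before it in Bloc1s4, and 7.64% of 27025 promoters hold them. An E-box begins 19 and 3 bases before the start in Bloc1s1 and 8 before it in Bloc1s3, and 7.24% of promoters hold one. The ETS letters, found in 9.12% of promoters, lie in Bloc1s1, Bloc1s2 and Bloc1s4. None of these motifs, nor the NRF1 motif (in 0.977% of promoters), is in the Dtnbp1 window. A match is a description of letters and not a bound site.

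In control cells every subunit was expressed. Per transcript length in SYAT controls, Bloc1s2 was highest at 31.5 ± 2.76 TPM (SD, n = 2) and Bloc1s4 followed at 25.7 ± 2.64 TPM. Snapin stood at 19.7 ± 0.607 TPM and Bloc1s6 at 16.3 ± 0.369 TPM. Bloc1s1 (9.36 ± 1.36 TPM) and Bloc1s3 (8.45 ± 0.405 TPM) did not differ beyond their spread. Dtnbp1 was at 6.12 ± 0.182 TPM and Bloc1s5 lowest at 2.30 ± 0.158 TPM. Bloc1s6 held rank 4 of 8 and Bloc1s5 rank 8 in each of the 6 control groups, although in wtSRCAP controls Bloc1s6 (17.7 ± 0.694 TPM) and Snapin (17.8 ± 2.75 TPM) did not differ beyond their spread. Of 7 genes for melanosome proteins, which BLOC-1 serves in pigment cells, Pmel alone reached 1 TPM in SYAT, sorted, wtSRCAP and cdSRCAP cells, and Pmel and Mlana did in CGR8.

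**Figure D1:**
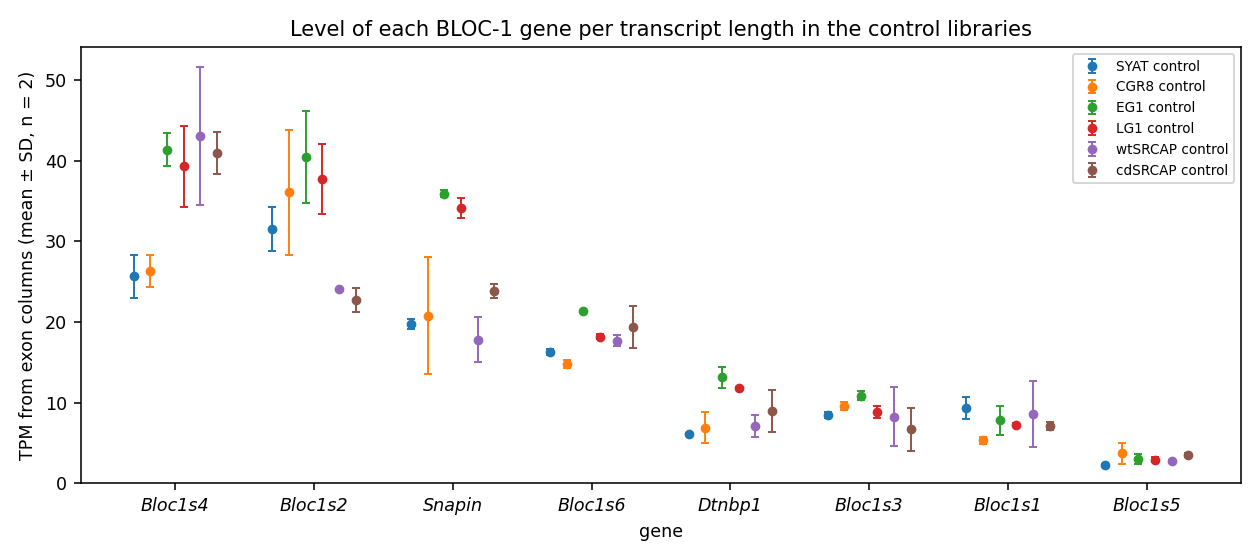
Level of each BLOC-1 gene in the control libraries, in TPM computed from the exon columns (points, mean; bars, SD of 2 libraries; colors, the 6 control groups). Bloc1s4, Bloc1s2 and Snapin are the 3 highest in each group and Bloc1s5 the lowest; groups come from separate tables, so levels are to be compared within a group.

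Bloc1s6, the subunit the set was chosen for, had a lower mean normalised exon count at each later time in SYAT cells. Its normalised exon count was 504 and 449.9 in the controls, 402 and 348 at 2 h, 316 and 287 at 4 h, 276 and 233 at 6 h, and 291 and 201 at 8 h. All 8 IAA libraries lay below both controls. The mean was 78.7%, 63.2%, 53.4% and 51.6% of control at the 4 times, with log2 fold changes of -0.35 ± 0.21 (SE), -0.66 ± 0.21, -0.90 ± 0.21 and -0.96 ± 0.21. On the TPM scale, which is not TMM-scaled, the mean was lowest at 6 h, at 6.43 ± 3.62 (SD, n = 2). It was 8.23 ± 1.31 at 8 h and 16.3 ± 0.369 in controls, so the order of 6 and 8 h depends on the scaling. These values carry no test, since they include or share controls with the contrast that chose the gene.

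By 8 h the intron column of Bloc1s6 had fallen further than its exon column, and their order in time was not tested. It held 249 and 222 normalised counts in controls and 240.2 and 186 at 2 h, which overlap. At 4 h it was 61.3 and 88.6, at 6 h 69.2 and 42.3, and at 8 h only 10.4 and 8.45, from raw counts of 10 and 11. The 8 h mean was 3.99% of control, a log2 fold change of -4.64 ± 0.38 (SE), whereas at 2 h the log2 fold change was -0.14 ± 0.31. In the same libraries 0.480 and 0.486 intron counts per exon count in controls became 0.0344 and 0.0460 at 8 h. With each of the 4 control and 8 h libraries left out in turn, the 8 h intron log2 fold change ran from -4.78 to -4.47. The 8 h contrast chose the gene, so this range describes the libraries and carries no test. The intron column of Bloc1s6 stayed below its exon column in every library, so it does not hold all exonic reads, unlike that of Bloc1s4.

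**Figure D2:**
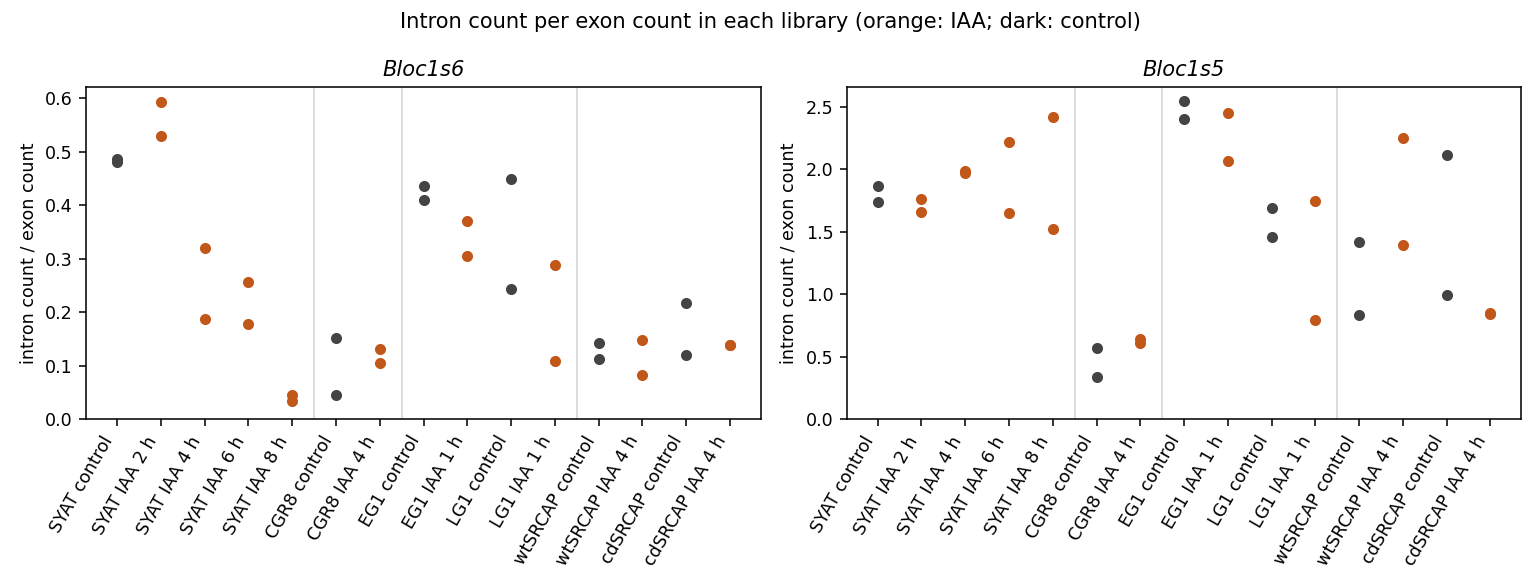
Intron count divided by exon count (raw counts, no unit) of Bloc1s6 and Bloc1s5 in each of the 30 libraries, with control libraries dark and IAA libraries orange. For Bloc1s6 the ratio falls from 0.480 and 0.486 in SYAT controls to 0.0344 and 0.0460 at 8 h; for Bloc1s5 the SYAT values lie between 1.52 and 2.42 with no such fall. Grey lines part the 4 tables, whose intron columns differ in content.

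The neighbouring Slc30a4 held 252 and 126 normalised exon counts in SYAT controls and 167 and 98.2 at 8 h, so its groups overlap. Its exon log2 fold change was -0.51 at 8 h. Sqor was nearly silent, with 14 and 7 raw exon counts in controls and 6 and 6 at 8 h. Bloc1s6os, an antisense RNA 141 bases from Bloc1s6, reached at most 1 raw exon count in any SYAT library and 4 in the intron columns.

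Bloc1s5, the muted subunit, had its lowest exon counts at 6 h and was not called at any tested time by edgeR. Its normalised exon count was 110 and 111 in controls, 104 and 76.8 at 2 h, 68.3 and 71.1 at 4 h, 48.6 and 61.5 at 6 h, and 94.0 and 60.5 at 8 h. All 8 IAA libraries were below both controls, and the mean was lowest at 6 h (49.8% of control). The log2 fold change was -0.30 ± 0.29 (SE) at 2 h, -0.66 ± 0.30 at 4 h (unadjusted p = 0.0483, adjusted p = 0.544) and -1.01 ± 0.30 at 6 h (unadjusted p = 0.00781, adjusted p = 0.164, edgeR). At 8 h it was -0.52 ± 0.29, given without a test. With 1 library left out at a time these ran from -0.54 to -0.09 at 2 h and from -0.88 to -0.23 at 8 h. Its intron column went from 196 and 210.5 in controls to 105 and 104 at 6 h, a log2 fold change of -0.96 ± 0.23 (unadjusted p = 0.00338, adjusted p = 0.142). DESeq2 called that 6 h intron change (shrunken log2 fold change -0.69, adjusted p = 0.0370).

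Bloc1s4, the cappuccino subunit, had lower exon counts from the first time point and was not called by edgeR. Its normalised exon count was 236 and 252 in controls, 158 and 167 at 2 h, and 144 and 171 at 4 h. The groups do not overlap at 2, 4 and 8 h (169 and 147), but at 6 h, 189 and 267 span the controls. On the TPM scale, which is not TMM-scaled, Bloc1s4 was at 16.2 ± 3.69 (SD, n = 2) at 6 h against 25.7 ± 2.64 in controls, so the size of its 6 h difference depends on the scaling. The log2 fold change was -0.58 ± 0.22 (SE) at 2 h (unadjusted p = 0.0254, adjusted p = 1.00) and -0.63 ± 0.22 at 4 h (unadjusted p = 0.0187, adjusted p = 0.413), and it was -0.10 ± 0.22 at 6 h.

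Bloc1s1, shared with BORC, had 103 and 77.7 normalised exon counts in controls and 67.2 and 50.5 at 4 h (log2 fold change -0.62 ± 0.29 (SE), unadjusted p = 0.0584). At 8 h its counts were 56.0 and 47.9, and at 6 h 67.6 and 84.1, which overlap the controls. Bloc1s2, the other small subunit shared with BORC, differed little in TMM-scaled counts, with log2 fold changes between -0.26 and 0.00 over the 4 times. Snapin, which binds SNARE proteins, stayed between -0.34 and 0.01. On the TPM scale the 6 h mean of each was lower than in controls. Bloc1s1 was at 5.44 ± 1.73 (SD, n = 2) against 9.36 ± 1.36. Bloc1s2 was at 20.9 ± 10.2 against 31.5 ± 2.76, and Snapin at 11.9 ± 8.24 against 19.7 ± 0.607. The 6 h differences of these genes therefore depend on the scaling.

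Bloc1s3 had 203 and 200.0 normalised exon counts in controls, between 156 and 183 at 2, 4 and 8 h, and 152 and 415 at 6 h. The 6 h libraries of this gene stand far apart (log2 fold change 0.49 ± 0.37 (SE), unadjusted p = 0.211). On the TPM scale Bloc1s3 was lower in mean at 6 h, at 7.23 ± 1.68 (SD, n = 2) against 8.45 ± 0.405, so its direction depends on the scaling. Replicates at 6 h correlated at 0.968 over all genes, the lowest of the 5 SYAT exon groups. Dtnbp1 had log2 fold changes of -0.03, -0.12, 0.14 and -0.03 at 2, 4, 6 and 8 h, and a 95% interval at 6 h from -0.46 to 0.74.

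**Figure D3:**
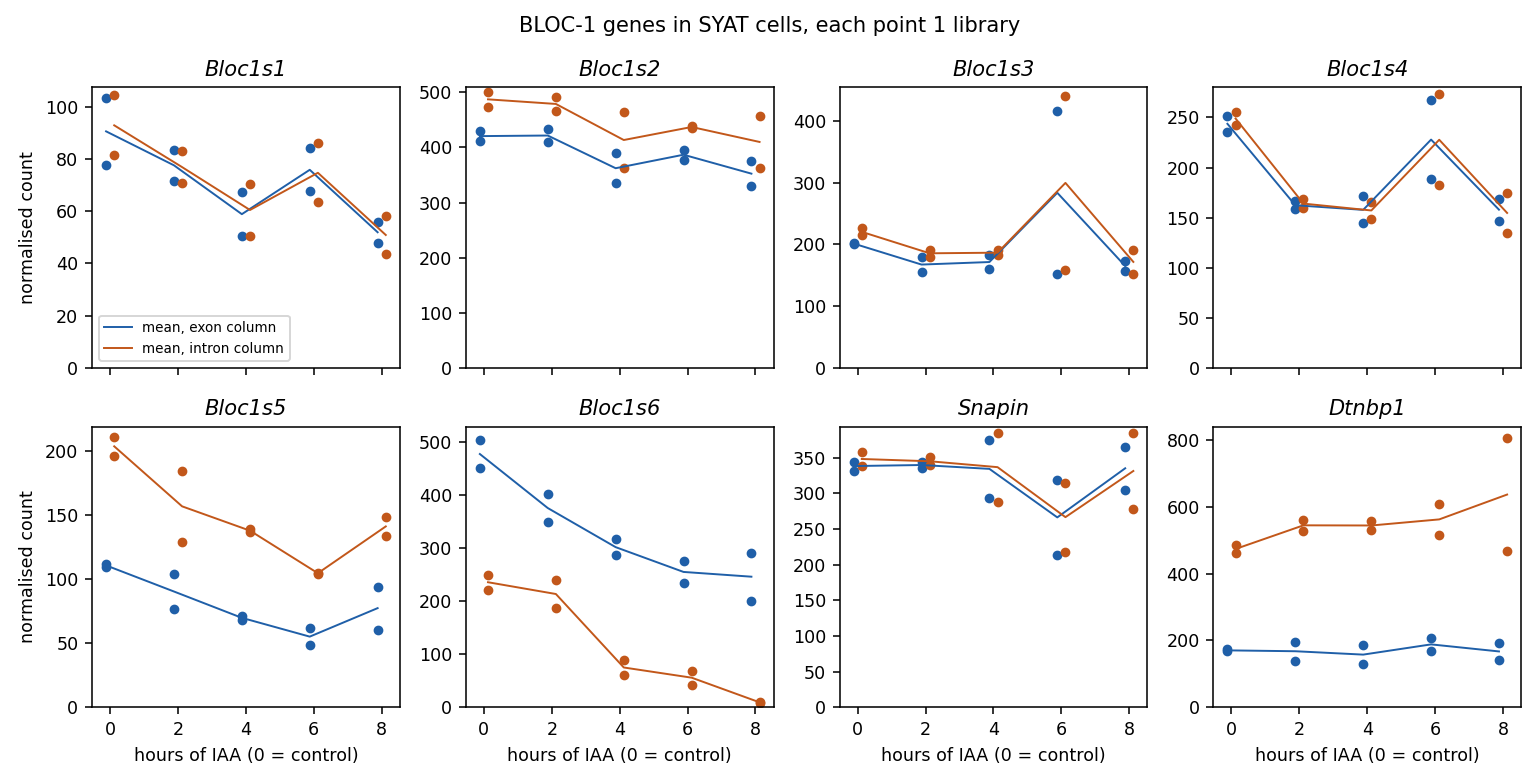
Normalised counts (TMM-scaled, y axis from 0) of the 8 BLOC-1 genes in SYAT cells against hours of IAA, each point 1 library, lines joining the means of 2 libraries, blue for exon and orange for intron columns. Bloc1s6 and Bloc1s5 exon points at every IAA time lie below both controls; the Bloc1s6 intron column is near 0 at 8 h, and the 2 Bloc1s3 libraries at 6 h stand apart.

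Of the 7 subunits other than Bloc1s6, 0 were called at 2, 4 and 6 h in the exon columns by edgeR (absolute log2 fold change over 0.5 and adjusted p under 0.05). The background of 19205 genes called lower was 0%, 0% and 0.0364%, and that called higher 0%, 0% and 0.0312%. At an unadjusted p under 0.05, 1, 2 and 1 of the 7 were lower, against 2.55%, 6% and 8.21% of all genes. None was higher, against 1.37%, 3.09% and 7.93%. They were Bloc1s4 at 2 h, Bloc1s4 and Bloc1s5 at 4 h, and Bloc1s5 at 6 h. DESeq2 called 0 of the 7 at 2, 4 and 6 h, with 8, 123 and 570 genes called in all. Without the first 6 h library edgeR called 3163 genes in both directions, and of the 7 only Bloc1s3, as higher.

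In the exon columns both IAA libraries lay below both controls for 4, 6, 4 and 6 of the 8 subunits at 2, 4, 6 and 8 h, against 21%, 24.1%, 22.2% and 24% of all genes. For 0 subunits did both lie above, against 18.6%, 21.7%, 21.5% and 20.9%. The median log2 fold change of the 8 was -0.24, -0.43, -0.19 and -0.40 at these times, and that of all genes lay between 0.00 and 0.03. The counts and medians include Bloc1s6, which lay below at all 4 times, and the 8 h contrast that chose the set. They partly reflect that choice and carry no test. The 4 times share 2 control libraries, so they do not count as separate evidence.

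The intron columns gave 0 of the 7 called by edgeR at 2, 4 and 6 h (background lower 0%, 0% and 0.00679%). DESeq2 called 0 of them at 2 and 4 h and Bloc1s5 at 6 h, with 44, 214 and 471 genes called in all. At an unadjusted p under 0.05, 1, 2 and 1 of the 7 were lower, the same subunits as in the exon columns, against 3.29%, 5.87% and 7.98% of genes, and 0 were higher, against 1.84%, 3.63% and 6.53%. Both IAA libraries lay below both controls for 3, 6, 4 and 6 of the 8 subunits at 2, 4, 6 and 8 h (23.5%, 24.6%, 23.6% and 23.5% of all genes). They lay above for 1 subunit, Dtnbp1, at 2, 4 and 6 h and for 0 at 8 h (21.6%, 21.4%, 21% and 20.2%). Since these columns hold exonic reads, most subunits repeat their exon values there. The counts of subunits below both controls include Bloc1s6 at 4, 6 and 8 h, and the 8 h contrast chose the set. They partly reflect that choice and carry no test.

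In bulk RNA, fewer cells of a type and less RNA per cell cannot be told apart. Trophoblast markers moved over the same libraries: their summed level was 9.14 to 10.2 TPM in controls, 13.9 to 16.2 at 2 h, 16.4 to 16.5 at 4 h, 8.54 to 14.6 at 6 h and 15.5 to 15.6 at 8 h, with 4 of 5 reaching 1 TPM. Feeder fibroblast markers summed to 16.5 to 17.0 TPM in controls, 21.2 to 22.2 at 4 h and 20.1 to 20.5 at 8 h, with Col1a1 and Thy1 reaching 1 TPM. At 2 h they summed to 14.9 to 18.3 and at 6 h to 12.2 to 19.8, ranges that span the controls. Primitive endoderm markers summed to 4.70 to 5.44 TPM in controls and 5.81 to 6.52 at 2 h. At 4, 6 and 8 h they overlapped the controls, at 5.05 to 7.27, 3.72 to 4.84 and 5.41 to 6.67. Gata3, 1 of the trophoblast markers, is listed in the paper among genes raised by SRCAP depletion. The part of any of these markers in the result was not tested.

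By Pearson's r over the 10 SYAT exon libraries, the genes most like Bloc1s6 were Bpgm (0.987), Arl13b (0.986), Wars (0.982), Mtmr6 (0.979) and Kpna6 (0.978), of 19204 genes. Bloc1s5 was the closest subunit (0.813, rank 884), then Bloc1s2 (0.790) and Bloc1s1 (0.696). Snapin stood at 0.504 and Bloc1s4 at 0.309, and Dtnbp1 (-0.13) and Bloc1s3 (-0.15) lay near 0. The libraries share 2 controls and their time course, so these values describe likeness only.

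CGR8 cells without the degron served as controls for IAA alone. Bloc1s6 had 1354 and 950.4 normalised exon counts in controls and 1114 and 1274 after 4 h of IAA, which overlap. Its log2 fold change was 0.05 (95% interval -0.41 to 0.51, unadjusted p = 0.798). That of Bloc1s5 was -0.13 (-0.60 to 0.34). In the intron columns both were higher in mean, at 0.45 (-0.36 to 1.27) for Bloc1s6 and 0.28 (-0.33 to 0.89) for Bloc1s5, although Bloc1s6 rested on only 49 to 196 counts. CGR8 and SYAT cells come from separate tables, so the difference between their responses was not tested.

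In CGR8, 0 subunits were called by edgeR or DESeq2 in either column (background 0.00988% lower in exon columns, and 0.00733% lower and 0.0147% higher in intron columns). In the exon columns 1 subunit was lower and 1 higher at an unadjusted p under 0.05, against 4.12% and 5.04% of all genes, and in the intron columns 0 of 6 tested were lower or higher, against 2.68% and 2.57%. By edgeR, Bloc1s4 had a log2 fold change of -0.55 ± 0.23 (SE; unadjusted p = 0.0441, adjusted p = 0.544) and Snapin one of 0.43 ± 0.18 (unadjusted p = 0.0417, adjusted p = 0.542). The Bloc1s4 counts were 812 and 535.5 in controls and 472 and 447.5 after IAA. The Bloc1s4 groups do not overlap, but in these TMM-scaled counts its CGR8 controls differed from each other by more than the lower of them differed from IAA. On the TPM scale it was at 20.8 ± 0.982 (SD, n = 2) after IAA and 26.4 ± 2.02 in controls. Both IAA libraries lay below both controls for 2 subunits, Bloc1s4 and Dtnbp1, against 20.6% of all genes. They lay above for 2, Snapin and Bloc1s2, against 21.6%. The Bloc1s4 log2 fold change in CGR8 stands beside -0.63 at the same time in SYAT cells with the degron.

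In sorted cells after 1 h of IAA, no subunit passed the thresholds used for these cells (absolute log2 fold change over 0.25 and unadjusted p under 0.05) in exon columns, with edgeR or DESeq2. With the replicate block Bloc1s5 passed in LG1 (log2 fold change -0.39, unadjusted p = 0.0368), with 883 genes called in all. The background called lower was 1.03% in EG1 and 0.733% in LG1. Bloc1s6 had a log2 fold change of -0.14 (95% interval -0.52 to 0.24) in EG1 and 0.02 (-0.37 to 0.40) in LG1. On the TPM scale it was lower in both phases. It was at 18.3 ± 1.65 (SD, n = 2) after IAA against 21.4 ± 0.0223 in EG1, and 17.4 ± 0.752 against 18.2 ± 0.316 in LG1. These Bloc1s6 differences therefore depend on the scaling. Bloc1s5 had 134 and 130.0 normalised exon counts in LG1 controls and 92.7 and 109 after IAA, which do not overlap (log2 fold change -0.39 ± 0.20 (SE), unadjusted p = 0.0882). Both IAA libraries lay below both controls for 4 of the 8 subunits in LG1 and 1 in EG1. For all genes the shares were 10.4% and 13.4%. The difference between the LG1 and EG1 responses was 0.16 for Bloc1s6 and -0.27 for Bloc1s5 (unadjusted p = 0.515 and 0.368). Control LG1 and EG1 cells did not differ past the thresholds in any subunit. At an unadjusted p under 0.05, 0 of 8 differed, against 0.733% of all genes lower and 0.709% higher.

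The LG1 intron columns, which hold almost no exonic reads, were lower for both genes. Bloc1s6 had 297 and 253 normalised counts in controls and 192 and 132 after IAA. Bloc1s5 had 321 and 366 in controls and 232 and 192 after IAA. In neither gene do the groups overlap, and 13.7% of all genes had both IAA libraries below both controls. The log2 fold change was -0.76 ± 0.27 (SE) for Bloc1s6 (unadjusted p = 0.0249) and -0.69 ± 0.21 for Bloc1s5 (unadjusted p = 0.0140), and the adjusted p was 1 for both.

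By edgeR these were 2 of the 8 subunits past the threshold, against 2.7% of 17441 genes called lower. DESeq2 passed the same 2, with 614 genes in both directions. Bloc1s1 and Bloc1s4 had no LG1 intron counts at all and passed the filter through EG1, where the columns hold exonic reads. The 17441 genes passed the same filter, so their share may also include genes without LG1 intron counts. Their median LG1 intron log2 fold change was 0.0, with 41.5% below 0. Without the second LG1 IAA library neither Bloc1s5 nor Bloc1s6 was past the threshold, and Bloc1s3 was instead (-0.88). Without the first LG1 control only Bloc1s5 was, and without the second only Bloc1s6. With all libraries Bloc1s3 was at -0.67 ± 0.31 (unadjusted p = 0.0639), from at most 26 raw counts. The neighbour Slc30a4 had 42 and 24 raw LG1 intron counts in controls and 3 and 4 after IAA (log2 fold change -3.15 ± 0.38 (SE), unadjusted p = 6.73e-05, adjusted p = 0.391, edgeR), while its exon log2 fold change was -0.03. In EG1 the intron log2 fold change was -0.43 ± 0.26 for Bloc1s6 (unadjusted p = 0.144, edgeR) and -0.19 ± 0.21 for Bloc1s5 (unadjusted p = 0.384, edgeR). There 0 of 8 passed, by edgeR or DESeq2, against a background of 1.89%. Trophoblast markers summed to 9.72 to 16.6 TPM in LG1 controls and 9.64 to 13.6 TPM after IAA, which overlap. EG1 and LG1 intron responses were not tested against each other because their columns hold different reads.

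**Figure D4:**
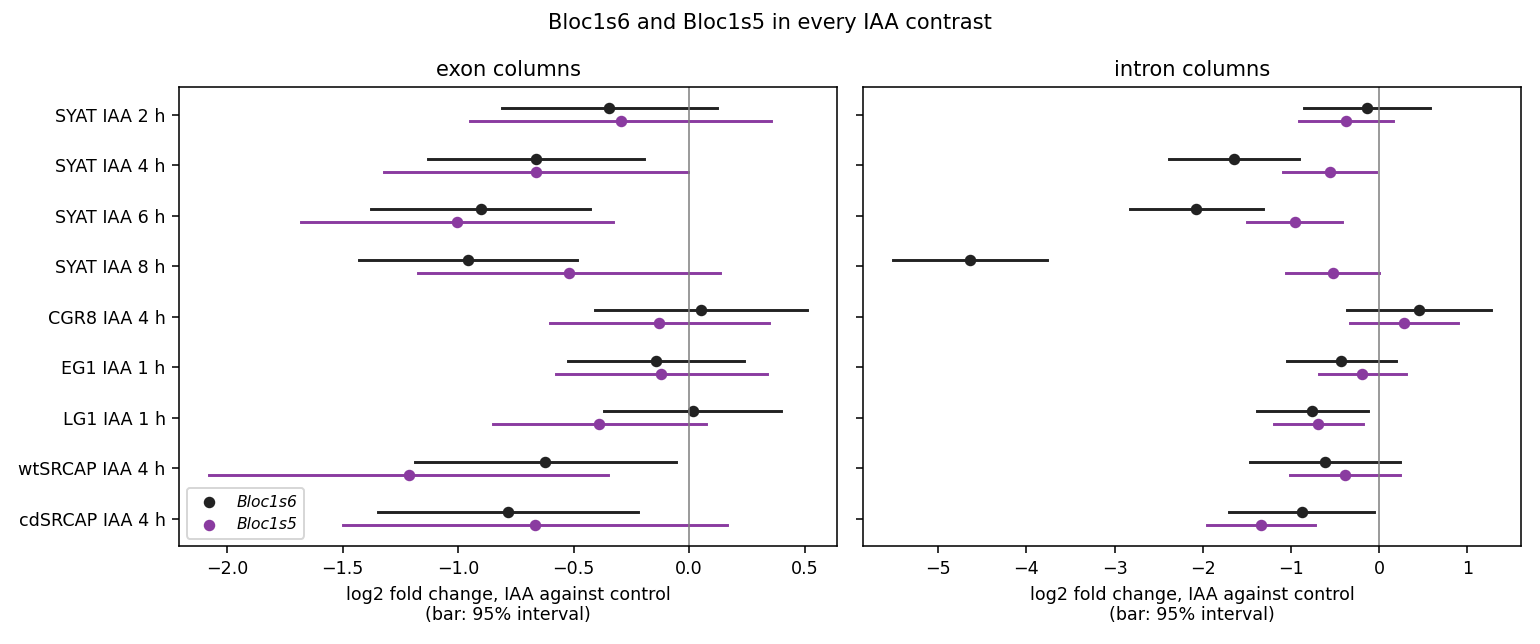
Log2 fold change of Bloc1s6 (dark) and Bloc1s5 (purple) in the 9 IAA contrasts, with points for the edgeR estimate and bars for its 95% interval; x axes differ between exon columns (left) and intron columns (right). Bloc1s6 in SYAT intron columns reaches -4.64 at 8 h, both genes lie near 0 in CGR8 exon columns, and both lie below 0 in wtSRCAP and cdSRCAP cells. Bars of Bloc1s6 in SYAT, and of Bloc1s5 at 8 h, are a description without a test, since the 8 h contrast chose the set.

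In cells expressing wtSRCAP or cdSRCAP, IAA acts on the tagged endogenous SRCAP while the dox-induced form is present with and without IAA. The choice of genes did not use these libraries. With wtSRCAP, Bloc1s6 had 367 and 386 normalised exon counts in controls and 219 and 268 after 4 h of IAA. With cdSRCAP it had 349 and 465 in controls and 249 and 224 after IAA. IAA libraries were below both controls in each line, as for 19.5% and 19% of all genes. The log2 fold change was -0.62 ± 0.25 (SE) with wtSRCAP (unadjusted p = 0.0339, adjusted p = 0.666) and -0.79 ± 0.25 with cdSRCAP (unadjusted p = 0.0114, adjusted p = 0.751).

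Bloc1s5 had 100.0 and 96.0 normalised exon counts in wtSRCAP controls and 28.7 and 53.2 after IAA. The lower of these came from 16 raw counts in the library with the fewest exon counts. Its log2 fold change was -1.21 ± 0.38 (SE) with wtSRCAP (unadjusted p = 0.0109, adjusted p = 0.641). With cdSRCAP it went from 108 and 132 to 68.3 and 83.3, a log2 fold change of -0.67 ± 0.37 (unadjusted p = 0.103). Bloc1s3 was the only subunit whose 2 wtSRCAP libraries with IAA (217 and 211) lay above both controls (98.8 and 189; 14.9% of all genes did so), with a log2 fold change of 0.57.

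In the intron columns, Bloc1s5 with cdSRCAP had 162 and 141 normalised counts in controls and 56.4 and 62.8 after IAA. That is a log2 fold change of -1.34 ± 0.27 (SE; unadjusted p = 7.47e-04, adjusted p = 0.0999), which DESeq2 called (adjusted p = 0.0421). With wtSRCAP it was 128 and 93.9 against 73.3 and 94.1, which overlap (log2 fold change -0.39 ± 0.28, unadjusted p = 0.189). Bloc1s6 had only 18 to 78 raw intron counts in these libraries. Its log2 fold change was -0.61 ± 0.38 with wtSRCAP and -0.88 ± 0.37 with cdSRCAP (unadjusted p = 0.138 and 0.0382).

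No subunit was called in either line by edgeR, in exon columns (background lower 0.00523% with wtSRCAP and 0% with cdSRCAP) or intron columns (0.236% and 0.213%). At an unadjusted p under 0.05, the exon columns gave 2 of 8 lower with wtSRCAP and 1 with cdSRCAP, against 4.48% and 3.99% of all genes. The intron columns gave 0 and 2 of the 5 subunits tested, against 6.61% and 7.49%. DESeq2 called 0 in the exon columns and, in the intron columns, Bloc1s5 with cdSRCAP, as 1 of 155 genes it called there. The cdSRCAP response minus the wtSRCAP response was -0.16 ± 0.35 for Bloc1s6 and 0.55 ± 0.53 for Bloc1s5 in exon columns. For Bloc1s5 in the intron columns it was -0.95 ± 0.39 (unadjusted p = 0.0359, adjusted p = 1.00). The lines therefore were not shown to differ, and the 95% interval for Bloc1s6 exon counts runs from -0.96 to 0.63.

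Averaged over both lines, a contrast added after the data were seen, Bloc1s6 was at -0.70 ± 0.18 (SE) in exon columns (unadjusted p = 0.00298, adjusted p = 0.159) and -0.75 ± 0.26 in intron columns (adjusted p = 0.159). Bloc1s5 was at -0.94 ± 0.27 in exon columns (adjusted p = 0.188) and -0.86 ± 0.19 in intron columns, where it was called (adjusted p = 0.0451). That is 1 of 5 subunits tested, against 2.48% of 12702 genes called lower. Dtnbp1 and Bloc1s2, tested in the same fit, were not called. Trophoblast markers summed to 7.36 to 9.97 TPM in wtSRCAP controls and 10.3 to 17.0 after IAA, and to 8.52 to 9.17 and 13.3 to 15.5 with cdSRCAP. Feeder markers summed to 3.12 to 5.04 and 6.54 to 10.5 TPM with wtSRCAP, and to 5.03 to 6.54 and 6.34 to 7.44 with cdSRCAP, which overlap. Primitive endoderm markers summed to 2.25 to 2.43 TPM in wtSRCAP controls and 2.44 to 3.13 after IAA. With cdSRCAP the ranges, 3.43 to 5.70 in controls and 5.06 to 5.26 after IAA, overlap. The part of these markers in the result was not tested.

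**Figure D5:**
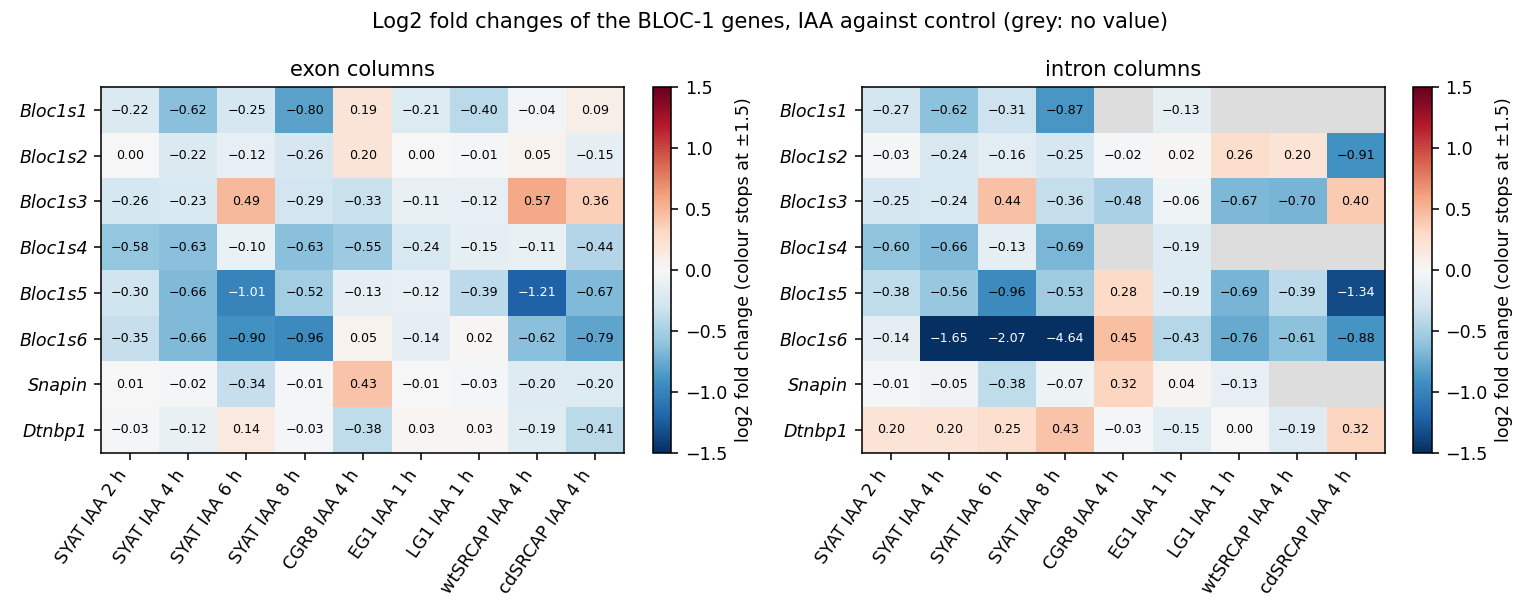
Log2 fold changes (numbers and color; color stops at 1.5 in either direction) of the 8 BLOC-1 genes in the 9 IAA contrasts, from exon columns (left) and intron columns (right); grey cells have no value. Bloc1s5 and Bloc1s6 are negative in the SYAT time course, wtSRCAP and cdSRCAP in both panels, Bloc1s6 is near 0 in CGR8 (0.05) and LG1 (0.02) exon columns, while Dtnbp1 and Bloc1s3 change sign between contrasts.

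Partners of BLOC-1 on the same route were read from a list of 34 genes, of which 33 passed the filter in SYAT exon columns. These are the BORC-only subunits, BLOC-2 and BLOC-3 (further Hermansky-Pudlak complexes), the AP-3 adaptor, the HOPS and CORVET tethers, and SNAREs, Rabs and Arls. In SYAT exon columns 0 of 33 were called by edgeR at 2, 4 or 6 h. At an unadjusted p under 0.05, 3, 8 and 7 were lower, against 2.55%, 6% and 8.21% of all genes. At these times 0 were higher, against 1.37%, 3.09% and 7.93%. Their median log2 fold change was -0.19, -0.32 and -0.24 at these times, and -0.29 at 8 h.

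The lowest p-values at 6 h belonged to Ap3s2, a small AP-3 subunit (log2 fold change -0.64, adjusted p = 0.0724), Borcs8 of BORC (-0.71, adjusted p = 0.118) and Hps4 of BLOC-3 (-0.74, adjusted p = 0.129). The SNARE Stx12, known to bind BLOC-1, was at -0.60 (adjusted p = 0.158). In CGR8 exon columns 0 of 33 were lower and 1 higher at an unadjusted p under 0.05, against 4.12% and 5.04% of all genes. Their median log2 fold change there was -0.11.

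In LG1 intron columns 5 of 30 partners passed the threshold for sorted cells, all lower, against 2.7% of all genes: Vti1b (-0.98), Ap3s2 (-0.87), Vps39 (-0.82), Borcs7 (-0.60) and Vps11 (-0.50), each with an adjusted p of 1. The limit given above for the 2.7% holds here too. In EG1 intron columns 0 of 30 passed, against 1.89% of genes called lower and 0.39% higher. In wtSRCAP intron columns Vps41, a HOPS subunit, was called at -0.94 (adjusted p = 0.0490, edgeR). It was 1 of 28 partners tested there, against 0.236% of genes called lower. With both lines averaged, Vps41 (-0.65, adjusted p = 0.0173) and Vps8 of CORVET (-0.51, adjusted p = 0.0488) were called. They were 2 of 28 tested, against 2.48% of genes called lower. In the wtSRCAP and cdSRCAP exon columns 0 of 33 partners were called by edgeR. At an unadjusted p under 0.05, 3 were lower in each line, against 4.48% of all genes with wtSRCAP and 3.99% with cdSRCAP, and 1 was higher with wtSRCAP, against 2.93%.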

How the data were processed

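The authors aligned nuclear RNA-seq reads to mm10 with STAR, counted them per gene with featureCounts on GENCODE vM25 exons and introns, and deposited whole-number counts without normalization, in 4 tables with an exon and an intron column for each of 30 libraries. Tables of the authors' own normalized values, log2 fold changes and p-values were not used. Symbols and coordinates came from GENCODE vM21 (55141 of 55401 identifiers matched without version).

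Each table and column type was fitted as a whole with edgeR 4.0.16 (filterByExpr with a minimum count of 10 and a minimum total of 15, TMM, glmQLFit and glmQLFTest, R 4.3.3), 1 term per condition, with Benjamini-Hochberg adjustment over all genes. SE is the absolute log2 fold change divided by the square root of F. Normalised counts are counts scaled to the geometric mean library of their table. TPM used merged exon lengths. With 2 libraries per condition, p-values rest on the spread between replicate libraries, pooled over the conditions of a fit and moderated across genes. DESeq2 1.42.0 with normal shrinkage, its size factors, no filter, a replicate block and leaving out each library were alternatives. So was subtraction of the exon from the intron column, in SYAT and EG1 libraries only. Fitting EG1 and LG1 apart and the mean IAA response of wtSRCAP and cdSRCAP cells were added after the data were seen. The fit was tested on simulated data. Genes were chosen with earlier results of these data known. Named were all subunits, called partners and the lowest p-values per list, neighbours of Bloc1s6, the 5 genes most like it, and Srcap.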

Additional observations from a re-analysis of the deposited data

How the results depend on the processing

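With size factors of DESeq2 in edgeR, every count of called subunits was equal to that reported, as were those in EG1 and LG1 fitted apart. In SYAT intron columns at 6 h, 0 of the 7 subunits other than Bloc1s6 were called, and 1 (Bloc1s5) under DESeq2. In LG1 it was 0 in exon columns and 1 (Bloc1s5) with the replicate block, and 2 in intron columns. That 2 became 1 (Bloc1s5) when the exon column was taken off in EG1, which shares the fit, with LG1 counts unchanged. In cdSRCAP intron columns it was 0, and 1 (Bloc1s5) under DESeq2, with no filter and with the replicate block. The cause of these differences was not tested.

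Replicate numbers are not stated to pair the libraries, and each comparison has 2 same-numbered pairs. The lowest correlation of same-numbered deviations was -0.036 in SYAT and 0.0736 in CGR8 exon columns, 0.372 and 0.141 in EG1 and LG1 exon and intron columns, and 0.259 and 0.0759 in wtSRCAP and cdSRCAP ones. Over the 10 condition pairs of SYAT exon columns the median was 0.286 and the highest 0.589. The median was 0.498 in EG1 and LG1 exon columns and 0.289 in wtSRCAP and cdSRCAP exon columns. The replicate block moved the number of genes called at 6 h in SYAT exon columns from 13 to 823 (DESeq2 gave 570 and no filter 885), and in CGR8 exon columns from 2 to 500 (118 and 386). In EG1 and LG1 exon columns it moved that number from 257 to 1269 and from 214 to 883.

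Leaving out 1 library at a time gave 0 to 1 called of these 7 subunits at 6 h in SYAT exon columns and 0 to 1 in intron columns (Bloc1s3, higher, without the first 6 h library). In CGR8 exon columns Bloc1s4 was called without the second control. In LG1 intron columns Bloc1s3 alone passed without the second IAA library, in place of Bloc1s5 and Bloc1s6. Log2 fold changes changed sign as follows. In CGR8 exon columns, Bloc1s6 ran from -0.18 to 0.34 and Bloc1s5 from -0.25 to 0.023. In EG1, Bloc1s5 ran from -0.23 to 0.013, in LG1, Bloc1s6 from -0.092 to 0.14, and between LG1 and EG1 controls, Bloc1s5 from -0.042 to 0.16. For Bloc1s6, cdSRCAP against wtSRCAP ran from -0.13 to 0.31 in controls, from -0.22 to 0.086 with IAA and from -0.24 to 0.13 in IAA intron columns, and the difference between their responses from -0.35 to 0.082. In SYAT intron columns at 2 h Bloc1s6 ran from -0.34 to 0.03. The low counts of Bloc1s5 and of intron columns limit what can be seen.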
